A study of Mus musculus with 8 samples.

Results

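The G1 cyclins, their kinases and the CDK inhibitors decide whether a haematopoietic stem cell stays out of the cell cycle. The 10 genes described here encode the inhibitors p27 (Cdkn1b), p57 (Cdkn1c), p18 (Cdkn2c) and p19 (Cdkn2d), the D-type cyclins (Ccnd1, Ccnd2 and Ccnd3), the kinases Cdk4 and Cdk6, and the retinoblastoma protein (Rb1). They were chosen by name, and they are 10 of the 54749 annotated genes to which deposited transcripts could be assigned. All 10 had enough counts to be tested, beside 21902 genes in all. RNA was sequenced from cells sorted as LT-HSCs, the stem cells that sustain blood formation over a long term. They came from 4 asrij floxed and 4 asrij KO mice, with 1 library per mouse. The libraries held much RNA of other cell types, given below. The floxed mice are homozygous for an asrij allele flanked by recombination sites and serve as controls. The KO mice carry the knockout in the whole body, and not in LT-HSCs alone. Mice of both sexes were used in the study, the labels give an age of 6 months, and no treatment is named. The sort for sequencing is given as LSK CD150+ CD48+, and other experiments of the study use CD150+ CD48- cells under the same name.

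In resting cells, p27 and p57 of the Cip/Kip family bind cyclin-CDK complexes, and p18 and p19 of the INK4 family bind Cdk4 and Cdk6 and keep the D-type cyclins off them. Growth signals raise the D-type cyclins, whose complexes with Cdk4 or Cdk6 phosphorylate Rb1. Phosphorylated Rb1 releases the E2F factors that drive genes of DNA synthesis. In haematopoietic stem cells, p57 is known for its high level in quiescence, p18 for limiting self-renewal and Cdk6 for setting the time of exit from quiescence.

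The targeted gene, asrij (Ociad1), had 31.3 to 66.9 CPM in floxed and 11.7 to 19.7 CPM in KO libraries, where CPM is a count relative to the library size after TMM scaling (log2 fold change -1.58, SE 0.27, adjusted p = 0.0249 by edgeR's quasi-likelihood test with Benjamini-Hochberg adjustment). It was lower in KO but not at 0. The 8 libraries held 23412830 to 44874879 gene counts. Libraries numbered 4 and 5 stood apart from those numbered 1 to 3 in both genotypes on the first principal component (41.3% of the variance), and the labels name no batch. Floxed library 3 stood apart from the other floxed libraries on several marker lists. Members' values are therefore given within both splits of the numbers, and without floxed library 3 where that moves them by over 1.5 times. The deposited counts behave as counts over the whole genomic span of a transcript on both strands. For 554 genes with at least 100 counts in each library that lie inside an intron of another gene on the other strand, all 1230 transcripts with such an intron had at least the inner gene's count in each library (100.0%). Of transcripts of the same host genes that lie beside the inner gene, 10.01% did. A member's count can thus hold reads of a gene that overlaps it.

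None of the 10 members passed an adjusted p under 0.05 (0 of 10, against 2.97% of all genes tested), and none passed the study's additional threshold of an absolute log2 fold change above 1.5 (1.19% of all genes). By fit, 6 members were higher and 4 lower in KO libraries. Their median log2 fold change was 0.28, against -0.01 over all genes, and the largest in size was 0.72. At an unadjusted p under 0.05 stood Cdkn2c, Cdk4 and Cdk6, 3 of 10 beside 21.8% of all genes. DESeq2 passed 1 member, Cdk6, beside 11.2% of all genes, and limma-voom passed 0. The genotypes were separated without overlap in 2 members, Cdk4 and Cdk6, beside 14.8% of all genes, and these kinases lay in opposite directions. Taken within library numbers 1 to 3 and again within 4 and 5, the genotypes were separated in the same direction for 7 members, beside 30.0% of all genes. These were Cdkn1c, Cdkn2c, Cdkn2d, Ccnd3 and Cdk4, higher in KO, and Ccnd2 and Cdk6, lower in KO.

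**Figure D1:**
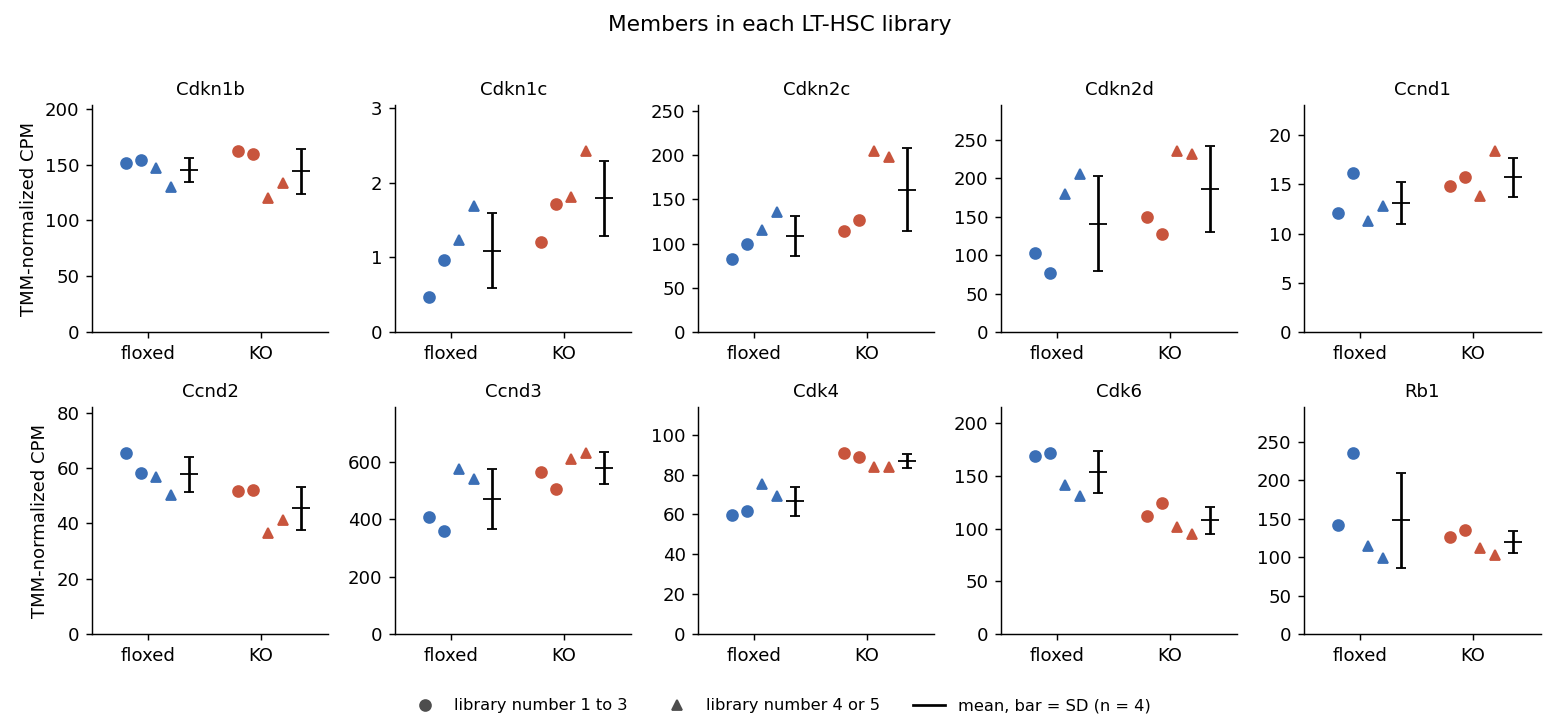
TMM-normalized CPM (vertical axes, linear and starting at 0) of the 10 members in the 4 floxed (blue) and 4 KO (red) LT-HSC libraries, with circles for library numbers 1 to 3, triangles for numbers 4 and 5, and bars for the mean and SD (n = 4). Cdk4 lay at 59.7 to 75.4 CPM in floxed and 83.7 to 91.0 in KO libraries, Cdk6 at 131 to 172 and 95.03 to 124, and the other 8 members overlapped.

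Cdk4, one of the kinases that D-type cyclins activate, had 59.7, 61.7, 75.4 and 69.3 CPM in floxed libraries 1, 3, 4 and 5 and 91.0, 88.7, 83.8 and 83.7 CPM in KO libraries 2, 3, 4 and 5. All 4 KO libraries lay above all 4 floxed libraries, and the KO values were the closer together. Averaged by genotype this was 66.5 ± 7.22 against 86.8 ± 3.62 CPM (floxed and KO, SD, n = 4 each). The log2 fold change was 0.38 (SE 0.13, 95% interval 0.08 to 0.68, adjusted p = 0.136 by edgeR). The exact two-sided permutation test gave p = 0.0286, the smallest that 4 against 4 libraries allow. Complete separation fixes this value, and 14.8% of all genes tested were so separated. For the members that overlapped, the same permutation test gave p = 0.0857 (Cdkn1c and Ccnd2) to 0.914 (Cdkn1b). The distance between genotypes was 0.58 (SE 0.20) in library numbers 1 to 3 and 0.21 (SE 0.10) in numbers 4 and 5, and the test of that difference did not pass (adjusted p = 0.582, edgeR).

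The 3′ end of Cdk4 overlaps Tspan31, a tetraspanin gene on the other strand, by 641 bases, and Tspan31 counts amounted to 27.7% of the Cdk4 count. A shorter Cdk4 transcript that ends before Tspan31 (chr10:127063603-127067002, plus strand, GRCm38) had 40.3, 46.8, 41.3 and 45.2 CPM in floxed and 60.4, 63.2, 58.5 and 59.4 CPM in KO libraries. Its groups were farther apart than those of the whole gene, and the values within each genotype closer. In a test of each transcript its log2 fold change was 0.55 (SE 0.14, adjusted p = 0.0619 by edgeR), where 3.62% of all transcripts tested had an adjusted p under 0.05. The transcript used for the whole gene had 0.44 (SE 0.17) in that test, against 0.38 in the test of genes. Tspan31 itself had a log2 fold change of -0.10 (SE 0.27).

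Cdk6, the partner kinase, had 169, 172, 142 and 131 CPM in floxed libraries 1, 3, 4 and 5 and 112, 124, 101 and 95.03 CPM in KO libraries 2, 3, 4 and 5. All KO libraries lay below all floxed libraries, and in each genotype the libraries numbered 4 and 5 were the lower ones. The means were 153.6 ± 20.1 and 108 ± 12.8 CPM (SD, n = 4 each). The exact two-sided permutation test gave p = 0.0286, again the smallest possible and fixed by the separation. The log2 fold change was -0.51 (SE 0.16, 95% interval -0.86 to -0.15, adjusted p = 0.107 by edgeR). The value was nearly the same in numbers 1 to 3 (-0.51, SE 0.22) and in numbers 4 and 5 (-0.48, SE 0.10).

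The Cdk6 gene spans 187116 bases (chr5:3343893-3531008, plus strand), and 77.5% to 88.0% of its counts fell on the last 8783 bases, which lie in its long 3′ end. This distal end had 141, 133, 124 and 112 CPM in floxed and 96.4, 107, 86.6 and 83.7 CPM in KO libraries. The body upstream of it, which is the span of the shorter Cdk6 transcript, had 28.6, 38.7, 17.8 and 19.3 CPM in floxed and 16.0, 16.8, 14.5 and 11.4 CPM in KO libraries. Neither stretch overlapped between genotypes, and both were lower in KO. Such separation was found in 14.8% of all genes tested, and no share was taken over stretches. The body had a log2 fold change of -0.73 (SE 0.22, adjusted p = 0.0889 by edgeR in the test of each transcript). The transcript of the whole gene had -0.43 (SE 0.15) in that test. A transcript confined to the start of the gene, most of it first intron, overlapped between genotypes (4.25 to 6.81 CPM in floxed, 5.11 to 5.98 in KO, log2 fold change 0.07, SE 0.19).

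**Figure D2:**
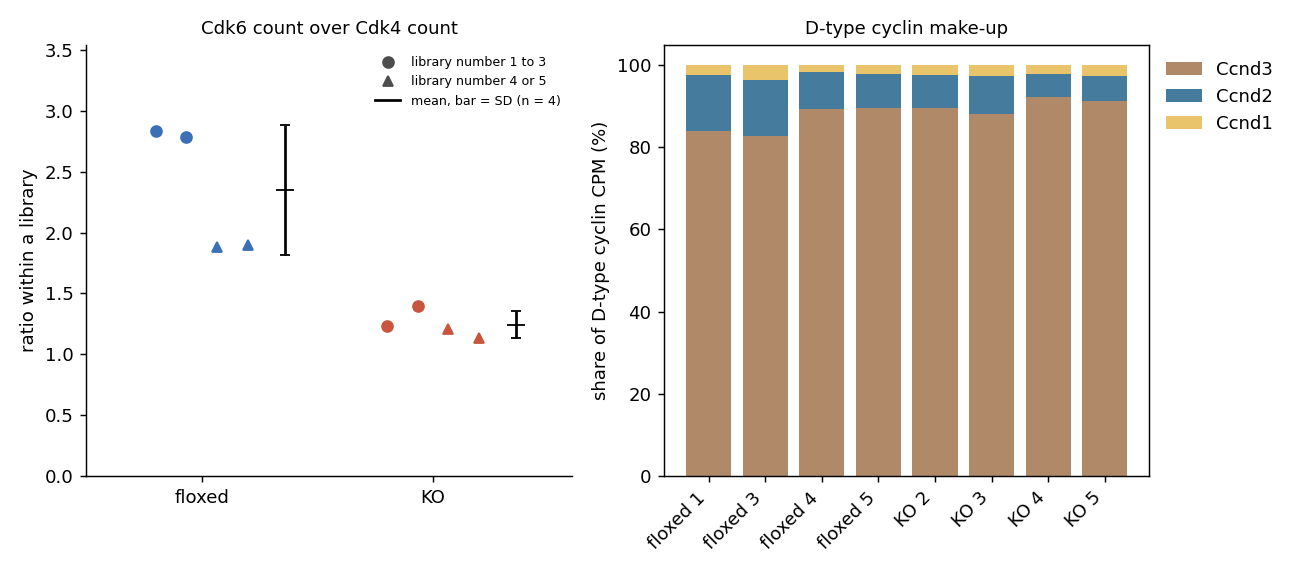
Left, the Cdk6 count over the Cdk4 count in each library (linear axis from 0) in floxed (blue) and KO (red) mice, with circles for numbers 1 to 3, triangles for 4 and 5, and bars for mean and SD. Right, stacked bars of the share of D-type cyclin CPM (%) held by Ccnd3, Ccnd2 and Ccnd1 in each library. The ratio is 1.88 to 2.84 in floxed and 1.14 to 1.40 in KO libraries, and Ccnd3 holds 82.9% to 92.3% everywhere.

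The ratio of both kinases within a library does not depend on how libraries are scaled. Cdk6 counts were 2.84, 2.79, 1.88 and 1.90 times Cdk4 counts in floxed libraries 1, 3, 4 and 5. In KO libraries 2, 3, 4 and 5 they were 1.23, 1.40, 1.21 and 1.14 times as many. The ratio was lower in every KO library than in any floxed library, and the floxed libraries numbered 4 and 5 were the nearest to the KO range. It was looked at because the kinases differed in direction, so it is a description and carries no test. These are counts over spans of unequal length, so the ratio is not one of molecules.

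Sequence upstream of the RefSeq start sites (GRCm38.p6) was on hand for 6 members in 8 windows of 250 bases. For Cdk4 and Cdk6, the members whose groups did not overlap, the stretch outside annotated exons nearest the start site is shown. For Cdk6 this is only a part of the window that lies outside exons. For Cdkn2c the stretch just upstream of its inner start is shown, since many of its counts fall on the leader that holds it. Capitals mark the E-box CACGTG, a site of Myc and related factors. They also mark the GC box, spelled GGGCGG or as its reverse complement, and the TATA box, spelled TATAAA.
Cdk4 (chr10:127063285-127063533, plus strand): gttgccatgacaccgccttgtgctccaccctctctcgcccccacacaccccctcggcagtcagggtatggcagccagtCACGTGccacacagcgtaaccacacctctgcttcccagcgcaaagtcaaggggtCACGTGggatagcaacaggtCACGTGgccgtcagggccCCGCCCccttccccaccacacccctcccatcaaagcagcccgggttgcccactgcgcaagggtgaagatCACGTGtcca
Cdk6 (chr5:3343789-3343892, plus strand): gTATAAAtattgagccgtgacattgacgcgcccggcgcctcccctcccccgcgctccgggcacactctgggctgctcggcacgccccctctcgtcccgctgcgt
Cdkn2c inner start (chr4:109665373-109665609, minus strand): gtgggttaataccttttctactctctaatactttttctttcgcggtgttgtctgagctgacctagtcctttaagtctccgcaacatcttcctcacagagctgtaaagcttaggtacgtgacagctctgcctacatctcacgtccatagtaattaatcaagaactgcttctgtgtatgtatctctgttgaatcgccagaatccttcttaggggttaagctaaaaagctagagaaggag

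The Cdk4 window held 4 copies of the E-box and 1 GC box. The Cdk6 window held 1 E-box, which lies outside the stretch printed, and the TATA box. The Cdkn2c inner window held none of these motifs. Searched on both strands, the E-box was in 2 of the 8 member windows, against 6.02% of 32851 windows of all genes. The GC box was in 6 of the 8, against 32.7%, and the TATA box in 1, against 12.4%. The E2F octamers TTTCCCGC, TTTCGCGC, TTTGCCGC and TTTGGCGC were in 0 of the 8, against 1.86%. A match is a run of letters, not a measured binding site.

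Among the INK4 inhibitors, Cdkn2c (p18) had 82.5, 99.5, 115 and 136 CPM in floxed libraries 1, 3, 4 and 5 and 115, 126, 205 and 199 CPM in KO libraries 2, 3, 4 and 5. The KO libraries numbered 4 and 5 were the highest, and the groups overlapped. The means were 108 ± 22.9 and 161 ± 47.2 CPM (SD, n = 4 each), with a log2 fold change of 0.57 (SE 0.24, 95% interval 0.03 to 1.12, adjusted p = 0.207 by edgeR). It was 0.42 (SE 0.22) in numbers 1 to 3 and 0.68 (SE 0.11) in numbers 4 and 5, and the test of that difference gave an adjusted p of 0.689 (edgeR).

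Cdkn2c lies on the minus strand (chr4:109660876-109667189), and the transcript used starts upstream of an inner start from which a shorter transcript carries the coding part. Taking the count of the shorter transcript (chr4:109660876-109665372) from the longer divides the gene. The coding part had 46.4, 51.0, 50.9 and 42.6 CPM in floxed and 56.7, 72.4, 58.1 and 57.2 CPM in KO libraries. The 5′ leader upstream had 36.0, 48.5, 64.4 and 93.7 CPM in floxed and 58.0, 54.0, 147 and 141 CPM in KO libraries. Both are genomic stretches, of 4497 and 1817 bases. The exons of the longer transcript amount to 2471 of its 6314 bases, so these counts can include introns. The coding part separated the genotypes without overlap and did not follow the library number. Among all genes tested, 14.8% were so separated, and no such share was taken over stretches. By contrast, the leader was highest in libraries numbered 4 and 5 of either genotype and overlapped between genotypes. The leader held 42.7% to 50.6% of the Cdkn2c count in numbers 1 to 3 and 55.8% to 71.6% in numbers 4 and 5. In the test of each transcript, the coding part had a log2 fold change of 0.42 (SE 0.16, adjusted p = 0.145 by edgeR), and the longer transcript one of 0.63 (SE 0.28).

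Cdkn2d (p19), the other INK4 member, had 103, 76.3, 179 and 206 CPM in floxed and 150.0, 127, 236 and 232 CPM in KO libraries. The library number separated its values more than the genotype did. All libraries numbered 4 and 5 had 179 to 236 CPM and all numbered 1 to 3 had 76.3 to 150.0 CPM. The log2 fold change between genotypes was 0.40 (SE 0.34, 95% interval -0.35 to 1.16, adjusted p = 0.536 by edgeR). Without floxed library 3 it was 0.20, and without floxed library 5 it was 0.64. Within numbers 1 to 3 it was 0.64 (SE 0.26), within numbers 4 and 5 it was 0.27 (SE 0.10), and in both splits the KO libraries lay above the floxed ones.

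**Figure D3:**
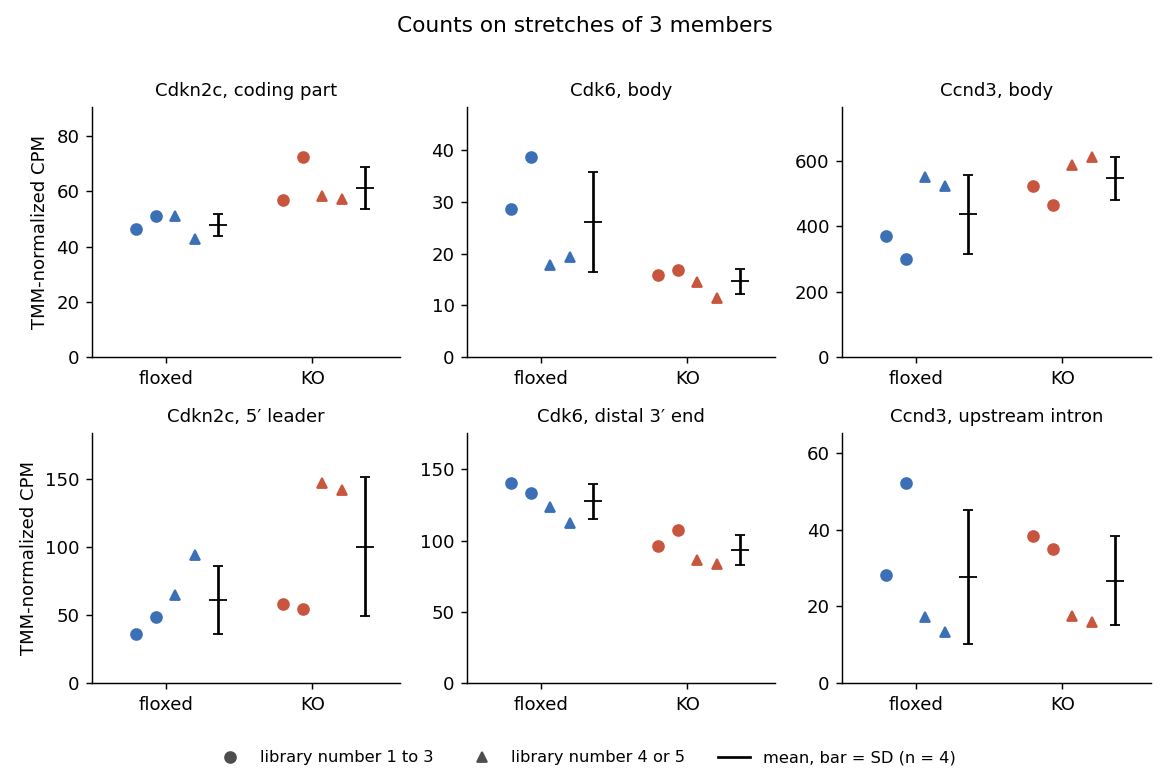
TMM-normalized CPM (vertical axes, linear from 0) on stretches of Cdkn2c, Cdk6 and Ccnd3 in floxed (blue) and KO (red) libraries, with circles for numbers 1 to 3, triangles for 4 and 5, and bars for mean and SD (n = 4). The Cdkn2c coding part and both Cdk6 stretches separate the genotypes, as do 14.8% of all genes tested. The Cdkn2c leader (64.4 to 147 CPM in numbers 4 and 5, 36.0 to 58.0 in 1 to 3) and the Ccnd3 upstream intron separate the library numbers.

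Of the Cip/Kip inhibitors, Cdkn1b (p27) was abundant and differed least of all members. It had 151, 154, 147 and 130 CPM in floxed libraries 1, 3, 4 and 5 and 162, 160, 121 and 133 CPM in KO libraries 2, 3, 4 and 5. The means were 146 ± 10.8 and 144 ± 20.5 CPM (SD, n = 4 each), and the log2 fold change was -0.02 (SE 0.16, adjusted p = 0.969 by edgeR). The 95% interval, -0.36 to 0.33, leaves room for a change of either sign. Within numbers 1 to 3 the log2 fold change was 0.09 (SE 0.22), and within numbers 4 and 5 it was -0.13 (SE 0.10). Without floxed library 3 it was 0.02 (SE 0.14). Its sign turned in 9 of the 23 alternatives run for it.

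Cdkn1c (p57) was the member with the fewest counts, 18 to 67 in a library. It had 0.47, 0.96, 1.23 and 1.69 CPM in floxed and 1.20, 1.72, 1.81 and 2.43 CPM in KO libraries. The KO values lay higher on average, but the groups overlapped. Its log2 fold change was the largest in size among the members, 0.72, and the least precise (SE 0.41, 95% interval -0.21 to 1.65, adjusted p = 0.35 by edgeR). It was 1.02 (SE 0.56) in numbers 1 to 3 and 0.53 (SE 0.33) in numbers 4 and 5. An antisense gene, Gm44732, lies wholly inside Cdkn1c on the other strand, and its own count amounted to 57.1% of that of Cdkn1c, with a log2 fold change of 0.56 (SE 0.55). How much of the Cdkn1c count comes from p57 RNA was not tested. Per kilobase of exon, p57 had 0.57 CPM in floxed mice against 60.9 for p27.

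The D-type cyclins were led by Ccnd3 in every library. Ccnd3 had 408, 360, 575 and 542 CPM in floxed libraries 1, 3, 4 and 5 and 567, 505, 610 and 633 CPM in KO libraries 2, 3, 4 and 5. The floxed libraries numbered 1 and 3 were the lowest, and the other floxed libraries lay within the KO range. The log2 fold change was 0.30 (SE 0.20, 95% interval -0.16 to 0.75, adjusted p = 0.439 by edgeR), with 0.50 (SE 0.27) in numbers 1 to 3 and 0.15 (SE 0.09) in numbers 4 and 5. Without floxed library 3 it was 0.20 (adjusted p = 0.462, edgeR).

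The Ccnd3 span (chr17:47505128-47599691, plus strand) includes a long intron upstream of the main body. A transcript in this intron held 6.75% to 14.5% of the Ccnd3 count in libraries numbered 1 to 3, with the highest share in floxed library 3, and 2.45% to 3.01% in numbers 4 and 5. The body alone (chr17:47593470-47599689) had 369, 301, 552 and 524 CPM in floxed and 523, 464, 588 and 612 CPM in KO libraries, and the lowest values were again those of floxed libraries 1 and 3. Its log2 fold change in the test of each transcript was 0.37 (SE 0.28, adjusted p = 0.467 by edgeR), where the transcript of the whole span had 0.34 (SE 0.25). The 3′ end of Ccnd3 overlaps Bysl, a ribosome assembly gene on the other strand, by 361 bases, and Bysl counts amounted to 32.9% of those of Ccnd3, with a log2 fold change of 0.31 (SE 0.27).

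Ccnd2 was the second of the cyclins and was lower in KO by fit. It had 65.6, 58.2, 56.8 and 50.2 CPM in floxed and 51.6, 52.0, 36.7 and 41.4 CPM in KO libraries. Floxed library 5 lay below the KO libraries 2 and 3, so the groups overlapped, yet within each split of the numbers both floxed libraries were above both KO libraries. The log2 fold change was -0.35 (SE 0.16, 95% interval -0.71 to 0.02, adjusted p = 0.254 by edgeR), with -0.24 (SE 0.20) in numbers 1 to 3 and -0.46 (SE 0.11) in numbers 4 and 5. Ccnd2 overlaps the antisense genes 9330179D12Rik and Gm43126, whose counts amounted to 63.6% and 24.2% of its own. Their log2 fold changes were -0.28 (SE 0.35) and -0.03 (SE 0.35).

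Ccnd1 was low, at 12.1, 16.1, 11.3 and 12.8 CPM in floxed and 14.8, 15.7, 13.8 and 18.4 CPM in KO libraries. The groups overlapped, and the log2 fold change was 0.26 (SE 0.17, 95% interval -0.13 to 0.65, adjusted p = 0.42 by edgeR). It was 0.13 (SE 0.23) in numbers 1 to 3 and 0.41 (SE 0.17) in numbers 4 and 5. Its 3′ end shares 1771 bases with LTO1 on the other strand, whose count was 155% of that of Ccnd1, with a log2 fold change of 0.31 (SE 0.14). How much of the Ccnd1 count comes from LTO1 cannot be told apart without strand.

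As shares of the D-type cyclin CPM, Ccnd3 held 82.9% to 89.6% in floxed and 88.2% to 92.3% in KO libraries. Ccnd2 held 8.30% to 13.5% and 5.56% to 9.08%, and Ccnd1 held 1.75% to 3.72% and 2.10% to 2.75%. Ccnd3 counts were 6.22, 6.18, 10.1 and 10.8 times Ccnd2 counts in floxed and 11.0, 9.72, 16.6 and 15.3 times in KO libraries. The ratio overlapped over all libraries, and within numbers 1 to 3 and within numbers 4 and 5 it was higher in both KO libraries.

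Rb1, the substrate of Cdk4 and Cdk6, had 142, 236, 115 and 98.3 CPM in floxed libraries 1, 3, 4 and 5 and 127, 135, 112 and 103 CPM in KO libraries 2, 3, 4 and 5. Floxed library 3 was the highest of the 8, though no library passed Dixon's outlier test in any of the 20 groups of member and genotype. Without it the log2 fold change went from -0.31 (SE 0.26, 95% interval -0.90 to 0.28, adjusted p = 0.543 by edgeR) to 0.023 (SE 0.16, adjusted p = 0.94). With floxed library 3 kept, the value was -0.51 (SE 0.30) in numbers 1 to 3 and 0.01 (SE 0.11) in numbers 4 and 5. The transcript with most counts (chr14:73183673-73287707, minus strand) is a non-coding one that runs past the 3′ end of the coding one. The protein-coding transcript (chr14:73195502-73325822) had 141, 254, 108 and 94.1 CPM in floxed and 109, 117, 88.3 and 80.0 CPM in KO libraries. Used in its place, it gave -0.60 (adjusted p = 0.288, edgeR).

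Lpar6, a receptor gene for lysophosphatidic acid, lies within an Rb1 intron on the other strand, and its counts amounted to 17.2% of those of Rb1. Lpar6 had 27.6 to 37.4 CPM in floxed and 13.4 to 18.0 CPM in KO libraries, a log2 fold change of -1.01 (SE 0.16, adjusted p = 0.0213 by edgeR). It fell, and the Rb1 count includes it. With the Lpar6 count taken away, Rb1 stood at 105, 208, 80.8 and 65.3 CPM in floxed and 110, 118, 94.3 and 89.9 CPM in KO libraries. The KO libraries then lay above the floxed libraries in numbers 4 and 5 and between them in numbers 1 to 3. An Rb1 transcript inside Lpar6 had a log2 fold change of -0.89 in the test of each transcript (SE 0.22, adjusted p = 0.052 by edgeR) and cannot be told apart from Lpar6. Rcbtb2 overlaps the other end of the Rb1 transcript used, with counts of 77.9% of it and a log2 fold change of -0.02 (SE 0.23).

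**Figure D4:**
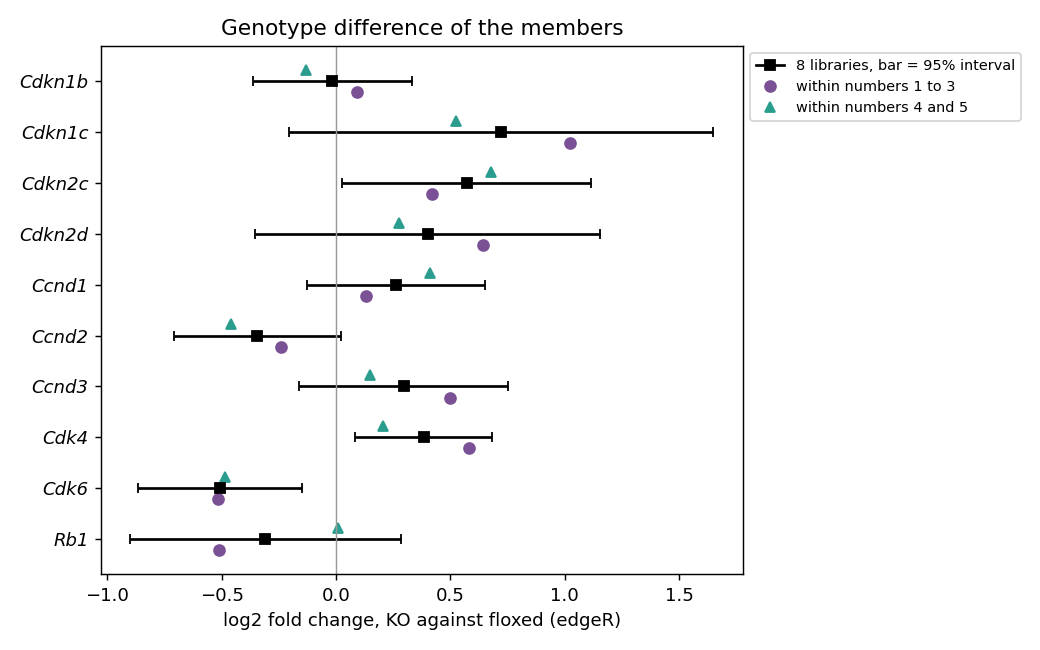
Log2 fold change of KO against floxed (horizontal axis) for the 10 members, as black squares with 95% intervals from edgeR over 8 libraries, circles for library numbers 1 to 3 and triangles for numbers 4 and 5. The intervals of Cdkn2c, Cdk4 and Cdk6 leave out 0 before adjustment, and Cdk6 is at -0.51 and -0.48 within the splits, while Cdkn1b and Rb1 change sign.

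Within library numbers 1 to 3, 0 of 10 members had an adjusted p under 0.05 by edgeR, where 2 genes of 23402 did (0.00855%). Within numbers 4 and 5, 3 members did, beside 32.8% of all genes. They were Cdkn2c (0.68, adjusted p = 0.0011), Ccnd2 (-0.46, adjusted p = 0.011) and Cdk6 (-0.48, adjusted p = 0.0041). With all libraries and a term for numbers 4 and 5, 4 members did, beside 18.5% of all genes, namely these 3 and Cdk4 (0.39, adjusted p = 0.039). The first of these, 3 of 10, is near the share of all genes. The signs within the splits were the same for 8 members, and Cdkn1b and Rb1 differed. The difference of the genotype effect between the splits passed for 0 members and for 0 of 21902 genes (0.0%) by edgeR, with 1862 genes at an unadjusted p under 0.05, and it was not run with another tool.

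The order of the members' levels per kilobase of exon in floxed mice was Ccnd3 (236 CPM per kilobase), Cdkn2d (99.1), Cdkn1b (60.9), Cdkn2c (43.9), Cdk4 (32.4), Rb1 by its coding transcript (32.0), Cdk6 (13.3), Ccnd2 (9.12), Ccnd1 (3.50) and Cdkn1c (0.57). Ranges over the 4 floxed libraries overlapped between Cdkn2d and Cdkn1b, Cdkn1b and Cdkn2c, Cdkn2c and Cdk4, and Cdk4 and Rb1. They did not overlap between Ccnd3 and Cdkn2d, Rb1 and Cdk6, Cdk6 and Ccnd2, Ccnd2 and Ccnd1, or Ccnd1 and Cdkn1c. Because the counts cover introns, the same levels per kilobase of span put Cdkn2d at rank 1 and Ccnd3 at rank 5. Cdkn1c was last on both scales.

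Over the 8 libraries, the members' log2 CPM also varied together in part. Cdkn2c and Ccnd2 had a Pearson r of -0.98, Cdkn2c and Cdk6 -0.89, Cdk4 and Cdk6 -0.85, Ccnd2 and Cdk6 0.89, Cdkn2d and Ccnd3 0.95, and Cdkn2d and Rb1 -0.92. The libraries share genotype, number and depth, so these describe 8 points and carry no p-value. Among 13653 other protein-coding genes, the profile most like that of Cdk6 was that of Caprin1 (r = 0.99869), followed by Rfx7. Those most like the others were Snu13 and Ascl4 for Cdk4 (0.982 and 0.978), Agrp and Ankrd9 for Cdkn2c (0.992 and 0.988) and Mcrip1 and Usf2 for Cdkn2d (0.996 and 0.995). They were Pdha1 and Alcam for Ccnd2 (both 0.98), Use1 and Aurkaip1 for Ccnd3 (both 0.99) and Kif15 and Npat for Rb1 (both 0.99). For Cdkn1b they were Tmeff1 and Brix1 (both 0.98), for Cdkn1c Tubb2b and Pih1d2 (0.958 and 0.951), and for Ccnd1 Kcnk5 and Tssk3 (0.957 and 0.944).

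Of 74 further genes of G1 entry and the cell cycle in 7 lists, 73 were tested and 2 had an adjusted p under 0.05 by edgeR. They were 1 higher (beside 1.22% of all genes) and 1 lower (beside 1.75%) in KO libraries. With the replicate number as a block 0 of them passed, where 0.222% of all genes did. Without floxed library 3 there were 27, and without any 1 of the other 7 libraries there were 0. Values did not overlap between genotypes for 17 of them, beside 14.8% of all genes.

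Cks1b, which helps the ubiquitin ligase of Skp2 to recognise p27, rose from 30.6, 31.0, 33.4 and 32.0 CPM in floxed to 55.7, 54.8, 49.5 and 45.4 CPM in KO libraries (log2 fold change 0.69, SE 0.13, adjusted p = 0.0313 by edgeR). Tgfbr2, a receptor subunit for the quiescence factor TGF-beta, fell from 56.2 to 72.6 CPM in floxed to 39.2 to 44.6 CPM in KO libraries (-0.63, SE 0.14, adjusted p = 0.0441 by edgeR).

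The remaining lists had no gene past the threshold. Over all genes tested, 49.6% were above 0 on the log2 scale. Among pocket proteins and E2F factors, 7 of 12 were above 0 on the log2 scale, the median was 0.06, and E2f4 (0.90, adjusted p = 0.0687) and E2f2 (0.68, adjusted p = 0.0938) had the smallest p in edgeR. Among the genes of S phase and mitosis 16 of 18 were above 0 with a median of 0.46, with the smallest p in Aurka (0.53, adjusted p = 0.0671) and Plk1 (0.57, adjusted p = 0.103). Below 0 were Bub1 (-0.57) and Mki67 (-0.20), the latter at 727 to 2393 CPM over all libraries. The genotypes did not overlap for 3 of the 18, beside 14.8% of all genes. The summed CPM overlapped (2128 to 4858 in floxed, 3089 to 3612 in KO libraries). The cyclin E/A-CDK2 list had a median of 0.21 with 6 of 8 above 0 (Ccne1 0.75, adjusted p = 0.232; Mnat1 0.22, adjusted p = 0.44). The MuvB list holds the core of a complex that silences cell cycle genes with the pocket proteins, and also B-Myb and DYRK1A. Its median was 0.23 with 4 of 7 above 0 (by edgeR, Lin37 0.66, adjusted p = 0.102, and Rbbp4 0.59, adjusted p = 0.155). The other CDK inhibitors had a median of 0.05 over 3 genes (Cdkn3 0.15, Cdkn1a -0.05), Cdkn2b had too few counts to be tested, the list with Cks1b had a median of 0.15 and the upstream regulators one of -0.16.

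**Figure D5:**
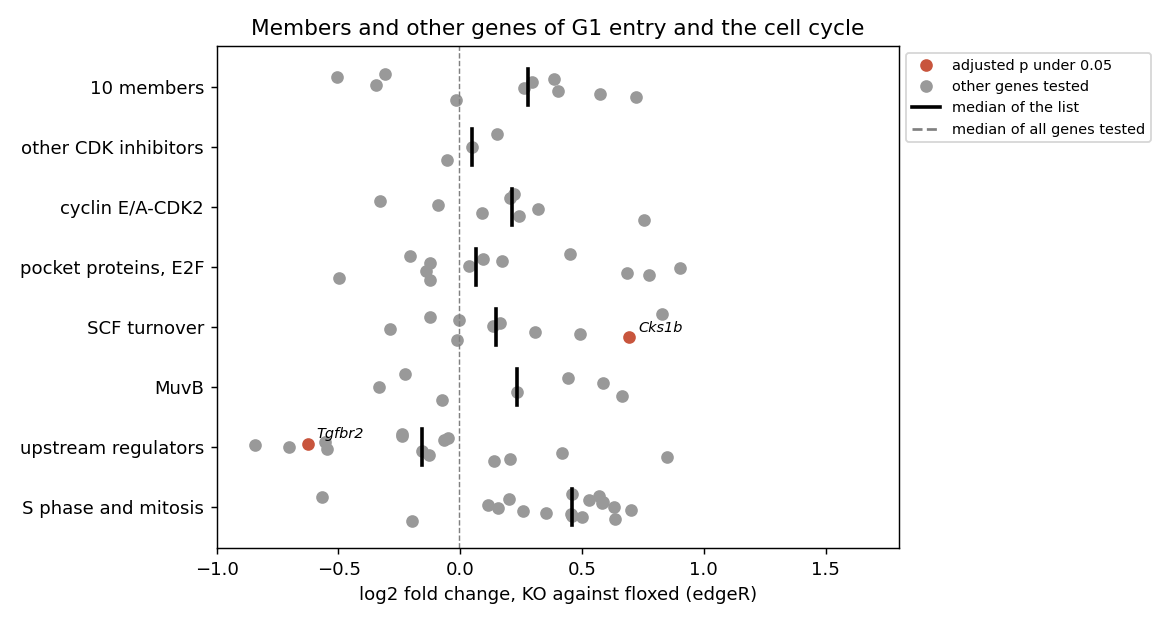
Log2 fold change of KO against floxed (horizontal axis, edgeR over 8 libraries) for the members and 7 lists of related genes, 1 point per gene, with the list's median as a black bar, the median of all genes as a dashed line and genes with an adjusted p under 0.05 in red. Cks1b and Tgfbr2 are the red points, and 16 of 18 genes of S phase and mitosis lie above 0, beside 49.6% of all genes tested.

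The libraries held much RNA of other cell types. The summed markers of erythroid cells and megakaryocytes were higher in all KO libraries and those of plasma cells and of T and NK cells lower, while the other sums overlapped. Over all genes, 1.22% passed as higher and 1.75% as lower, and 49.6% were above 0 on the log2 scale. Erythroid markers summed to 28152 to 71271 CPM in floxed and 122960 to 295500 CPM in KO libraries (14 of 14 above 0 on the log2 scale, 3 with an adjusted p under 0.05). Megakaryocyte markers summed to 67.4 to 132 and 226 to 269 CPM (7 of 7 above 0, 5 passed). B-lineage markers summed to 336 to 688 and 586 to 632 CPM (8 of 10 above 0, 2 passed as higher). Granulocyte and monocyte markers summed to 18812 to 59387 and 28180 to 34588 CPM (1 of 12 above 0, 0 passed). Plasma cell markers summed to 217 to 366 and 180 to 187 CPM (2 of 8 above 0, 2 passed as lower). Without overlap, 3 of them were lower in KO and 1, Mzb1, was higher. T and NK markers summed to 84.7 to 108 and 67.5 to 71.0 CPM (3 of 10 above 0, 1 passed as lower). Without overlap, 2 of them were lower in KO and 1, Cd4, was higher. Over all genes tested, 14.8% did not overlap. Stroma and endothelium markers summed to 110 to 288 and 239 to 250 CPM (7 of 8 above 0, 1 passed as higher). No marker of these lists was at 0 in any library. The stem cell and sort markers summed to 181 to 199 CPM in floxed and 166 to 209 CPM in KO libraries (0 of 11 passed), with Procr at 0.14 to 0.96 CPM and Slamf1, which encodes CD150, at 0.88 to 4.39 CPM. Kit (46.8 to 60.2 CPM) and Cd48 (35.2 to 55.2 CPM) had the highest values in that list. Its sum therefore says little about genes as low as Procr and Slamf1. Floxed library 3 held the lowest sum of granulocyte and monocyte markers and the highest of B-lineage, stromal and S phase and mitosis genes. The part of these cell types in the members' values was not tested, and in bulk RNA fewer cells of a type and less RNA per cell cannot be told apart.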

How the data were processed

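The authors trimmed reads with Trim Galore after FastQC, aligned them with Bowtie 2 to transcripts of GRCm38/mm10 and deposited 1 count per Ensembl transcript for each of 8 libraries. The counter, versions and use of strand are not given in the sources used here. The deposited counts are whole numbers without normalization. Of 138930 transcripts, GENCODE M21 holds 138789 and gave their genes (137913 in the same version). Reads are counted on several transcripts, so each gene is represented by the transcript that had most counts over all libraries. Transcripts nested in one another gave the counts of stretches.

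Genes were filtered with filterByExpr, scaled by TMM and tested with glmQLFTest (edgeR 4.0.16 under R 4.3.3), and p-values were adjusted by Benjamini-Hochberg over 21902 genes. The thresholds follow the study's methods. DESeq2 1.42.0, limma-voom (limma 3.58.1), other scalings, filters and ways of combining transcripts, blocks, splits of the library numbers and leaving out each library were alternatives, and the fits were tested on simulated data. Splits and the test of each transcript were added after seeing the data. Python 3.11.15 with numpy 2.4.6 and pandas 2.3.3 did the other steps. Promoter windows came from RefSeq (GRCm38.p6). No 2 libraries of a genotype agreed within counting noise (chi-square per degree of freedom of at least 10.7). Library totals were 56661356 to 120858975 transcript counts.

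The members, lists and tests were chosen with earlier results of these data known. Genes named are the members, the targeted gene, genes of the lists with an adjusted p under 0.05 or otherwise the 2 smallest p, genes overlapping a member with at least 10% of its count, and the 2 most similar profiles. Single stem cell and sort markers, the S phase and mitosis genes below 0, Mzb1, Cd4, B-Myb and DYRK1A are also named. From lists with a gene past the threshold only that gene is named. 1 gene of the lists is not reported here and was left out of their counts and sums.

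Numbers 3, 4 and 5 occur in both genotypes, but in different mice, and the labels are the source of the numbers. Deviations from the genotype means correlated at 0.374, 0.394 and 0.579 in the 3 same-number pairs (mean 0.449, against -0.103 for other numbers). The correlation was as high between different numbers within 1 to 3 or within 4 and 5 (0.346 to 0.603). The check therefore shows the split of the numbers and cannot show that the same number pairs 2 libraries.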

Additional observations from a re-analysis of the deposited data

How the results depend on the processing

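Of the members, Cdkn1c, Cdkn2c, Cdkn2d, Ccnd1, Ccnd2, Ccnd3, Cdk4 and Cdk6 kept their direction under every alternative run for them. Cdkn1b changed sign in the gene sums over transcripts (log2 fold change 0.032), without a filter (0.025), without overlapping genes (0.0042), within numbers 1 to 3 (0.092) and with each transcript tested (0.051). Rb1 changed sign within numbers 4 and 5 (0.0103). With 1 library left out, Cdkn1b ranged from -0.066 to 0.082, Rb1 from -0.46 to 0.023, Cdkn2d from 0.20 to 0.64 and Ccnd3 from 0.20 to 0.41, and 0 members passed in each of the 8 fits. Scaling by library totals moved the median of all genes to -0.20 and the share of genes above 0 from 49.6% to 34.6%. The members were then at -0.20 (Cdkn1b), 0.53 (Cdkn1c), 0.36 (Cdkn2c), 0.21 (Cdkn2d), 0.05 (Ccnd1), -0.52 (Ccnd2), 0.11 (Ccnd3), 0.20 (Cdk4), -0.69 (Cdk6) and -0.52 (Rb1).

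Members passed an adjusted p under 0.05 under 3 alternatives. Cdk6 passed with DESeq2 (-0.49, adjusted p = 0.028). With a block for numbers 4 and 5, 4 members passed, Cdkn2c (0.54), Ccnd2 (-0.36), Cdk4 (0.39) and Cdk6 (-0.50). Within numbers 4 and 5, 3 passed, Cdkn2c (0.68), Ccnd2 (-0.46) and Cdk6 (-0.48).

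Over all genes, 261 passed both thresholds and 651 the adjusted p alone. These counts were 503 and 2447 with DESeq2, 521 and 4060 with the block for numbers 4 and 5, 2 and 2 within numbers 1 to 3, and 1061 and 6883 within numbers 4 and 5. Under the replicate block they were 44 and 48, and this block changed no call of a member. Leaving out 1 library gave 51 to 857 and 61 to 3875, the highest without floxed library 3. Of the 73 genes tested in the lists, 2 passed, against 4 in sums over transcripts, 14 with DESeq2, 1 with limma-voom, 0 with the replicate block, 22 with the block for numbers 4 and 5, 0 within numbers 1 to 3, 38 within numbers 4 and 5 and 0 to 27 with 1 library left out. The cause of these moves was not tested. Counts of 18 to 67 per library limit Cdkn1c.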
